A study of Mus musculus with 24 samples.

Results

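The miRNAs miR-199a and miR-214 are made from hairpins on the same long non-coding RNA, Dnm3os, and 4 of their mature products were followed here: mmu-miR-214-3p, mmu-miR-214-5p, mmu-miR-199a-5p, and mmu-miR-199a-3p. They are 4 of the 1531 mouse miRNAs counted in 24 miRNA-Seq libraries. The locus was chosen by the fold change and p of miR-214-3p, which was among the miRNAs that were higher after neonatal hypoxic-ischemic brain injury (HIBI) in the striatum/thalamus. The contrast is therefore given below as a description with no test, and the question was whether the other 3 products followed miR-214-3p in it, in the other regions, and in sham control pups.

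All libraries came from CD1 mouse pups of both sexes at postnatal day 9. Under isoflurane anesthesia and local bupivacaine the right common carotid artery was cauterized in 4 pups, which then spent 30 min at 8% oxygen (HIBI), while 4 sham pups had the same neck dissection without ligation and stayed in normal air. The right cerebellum, striatum/thalamus, and cortex of each pup were taken 30 min later, so that every group had 4 libraries and the 3 regions of a pup are paired. In this model the cerebellum is exposed to hypoxia without ischemia, and no group had hypoxia or ligation alone. The tissue is bulk, so fewer cells of a type and less RNA per cell cannot be told apart. Each library held between 1254185 and 3406624 mouse miRNA reads. A level is given in CPM, the count per 1000000 mouse miRNA reads, after TMM scaling, which corrects for differences in library composition, and 1 read was worth less than 1 CPM in every library.

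A primary miRNA transcript is cut to a hairpin in the nucleus and then to a short duplex in the cytoplasm, and 1 or both arms of the duplex (5p and 3p) are loaded into Argonaute, where bases 2 to 8, the seed, guide the pairing with target mRNAs. Dnm3os is transcribed from the strand opposite to Dnm3, the gene of a dynamin, and is known from mesenchymal tissues, where the transcription factor Twist1 drives it. In brain, miR-199a and miR-214 are usually attributed to vessels, meninges, and other mesenchymal cells more than to neurons.

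The mature sequences are shown because they decide which reads can be told apart. All 4 names were matched in the RefSeq table of mouse miRNAs on GRCm38.p6, and the capitals mark the seed.
mmu-miR-214-3p: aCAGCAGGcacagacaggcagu
mmu-miR-214-5p: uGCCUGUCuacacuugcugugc
mmu-miR-199a-5p: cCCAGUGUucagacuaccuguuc
mmu-miR-199a-3p: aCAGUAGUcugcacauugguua
The 4 seeds differ from each other. The seed of miR-214-3p is shared with miR-761, and the whole sequence of miR-199a-3p is shared with miR-199b-3p, so the counts that the tables give separately for those last 2 names cannot be assigned to one or the other. The hairpin of miR-199b also holds the seed of miR-199a-5p, within a stretch nearly the same as miR-199a-5p.

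The hairpins show which product lies on which arm, and why miR-199a cannot be assigned to Dnm3os alone. The capitals mark the mature arms, with 5p first.
Mir199a-2: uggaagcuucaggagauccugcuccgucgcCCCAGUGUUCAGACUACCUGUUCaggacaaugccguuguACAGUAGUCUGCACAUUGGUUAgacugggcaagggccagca
Mir214: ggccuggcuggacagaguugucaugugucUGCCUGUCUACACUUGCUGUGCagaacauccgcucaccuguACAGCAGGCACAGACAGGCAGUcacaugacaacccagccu
Mir199a-1: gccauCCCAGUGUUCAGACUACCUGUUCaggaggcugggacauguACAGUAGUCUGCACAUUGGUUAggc
Mir199a-2 lies at chr1:162217814-162217923 and Mir214 at chr1:162223368-162223477, both on the plus strand of GRCm38.p6 and 5444 bases apart. In the GENCODE M21 annotation both are within Dnm3os (chr1:162217623-162225550, plus strand), in an exon of 2 of its 6 transcripts, and opposite to an intron of Dnm3. Mir199a-1 lies at chr9:21496495-21496564 on the minus strand, opposite to an intron of Dnm2, and carries both miR-199a arms with the same letters. Reads of miR-199a-5p and miR-199a-3p are therefore the sum of both loci, while miR-214-3p and miR-214-5p come from Mir214.

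The 4 products differed widely in abundance. Over the 24 libraries there were 5670 reads of miR-199a-3p, 2239 of miR-199a-5p, 1239 of miR-214-3p, and 87 of miR-214-5p. The first 3 averaged above 10 CPM, the minimum used for a test, in all 3 regions. MiR-214-5p averaged below it in every region, at 1.63 CPM in the cerebellum, 1.44 CPM in the striatum/thalamus, and 1.70 CPM in the cortex, and was kept in the fits only so that all 4 could be described. It had no reads in 6 libraries, where a count of 0 allows up to 1.25 to 1.76 CPM (3 counts, counting error only).

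Within each hairpin one arm held most of the reads. The 5p arm made up 6.56% of the miR-214 reads (87 of 1326, Wilson 95% interval 5.35 to 8.02%) and 28.3% of the miR-199a reads (2239 of 7909, 27.3 to 29.3%), so the 3p arm was the more abundant one in both. These intervals cover counting error only, not the spread between libraries, and PCR copies were not told apart. In single libraries the 5p share of the miR-199a reads ran from 7.80% to 44.3%. That share also depends on how the 3p reads common to miR-199a and miR-199b were split. MiR-199a-3p held 56.4% of the reads shared with miR-199b-3p, and the share in single libraries ran from 42.5% to 63.4%. The 5p arm does differ between the 199a and 199b hairpins, and miR-199a-5p held 94.2% of the reads of the 2 5p arms, 2239 reads against 137 of miR-199b-5p. The origin of the shared 3p reads cannot be taken from this share, because the use of the arms differs between hairpins.

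**Figure D1:**
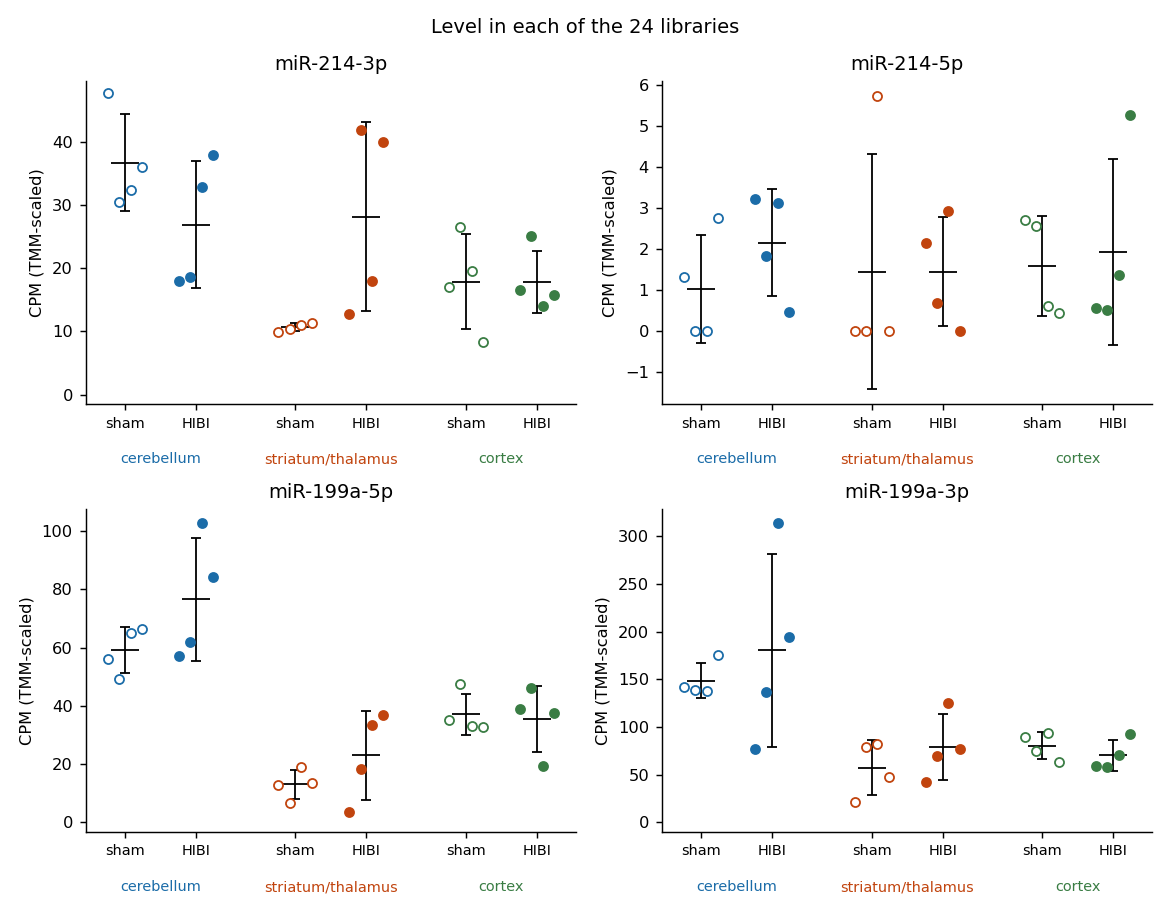
Level of each of the 4 miRNAs in CPM in every library, by region, with open circles for sham and filled circles for HIBI pups; the bars are the mean and SD of 4 libraries. The 4 HIBI libraries of the striatum/thalamus lie above the 4 sham libraries for miR-214-3p, whereas the groups overlap for the other 3 miRNAs there, and the sham cerebellum lies above the other sham regions for miR-214-3p, miR-199a-5p, and miR-199a-3p.

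The striatum/thalamus contrast that chose the locus is described first. MiR-214-3p was read 17, 25, 23, and 23 times in sham pups 2, 3, 6, and 8, and 18, 62, 37, and 95 times in HIBI pups 1, 4, 5, and 7. In CPM this was 9.97, 10.4, 11.0, and 11.4 in the sham pups and 12.8, 42.0, 18.0, and 40.1 in the HIBI pups. The sham libraries were close together, all 4 HIBI libraries were above them, and pups 4 and 7 were far above the other HIBI pups. The mean was 10.7 ± 0.615 CPM in sham (SD, n = 4) and 28.2 ± 15.0 CPM after HIBI, a log2 fold change of 1.30 ± 0.43 (SE) from edgeR's quasi-likelihood fit, or 2.46-fold.

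The other 3 products did not separate the groups as miR-214-3p did. MiR-199a-5p was at 12.9, 6.69, 19.1, and 13.4 CPM in the sham pups and at 3.55, 18.3, 33.5, and 36.7 CPM in the HIBI pups. HIBI pups 5 and 7 were above every sham pup, and pup 1, with 5 reads, was below every one. The log2 fold change was 0.76 ± 0.60. MiR-199a-3p was at 21.7, 79.0, 81.6, and 47.0 CPM in the sham pups and at 41.9, 69.8, 125, and 77.3 CPM in the HIBI pups. Only pup 5 was above every sham pup, and the log2 fold change was 0.37 ± 0.44. MiR-214-5p, from the same hairpin as miR-214-3p, was read 0, 0, 12, and 0 times in the sham pups and 3, 1, 6, and 0 times in the HIBI pups. Its log2 fold change of -0.13 ± 1.46 rests on the 12 reads of sham pup 6, without which it was 4.48.

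By the criteria of the study, which were more than a 1.5-fold difference with an unadjusted p under 0.05, 12 of 437 miRNAs (2.75%) were called in the striatum/thalamus, and 1 of the 4 products, miR-214-3p, was among them by choice. Nothing is read from that count, and the median log2 fold change over all 437 was -0.03. With 1 pup left out in turn, the log2 fold change of miR-199a-5p ran from 0.44 without HIBI pup 7 to 1.17 without HIBI pup 1, the library with the fewest reads of it. Among the markers of other cell types 1 miRNA was called there, 1 of the 4 tested of ciliated epithelium, which was higher. The summed level of 5 ciliated epithelium miRNAs was 231 to 490 CPM in sham and 520 to 702 CPM in HIBI libraries, without overlap. That list holds a miRNA that the paper reports as increased there. The lists were chosen with earlier results known, so this separation is only a description. For 5 mural cell and fibroblast miRNAs (the miR-143 and miR-145 family) the sum was 1788 to 2451 CPM in sham and 1764 to 3864 CPM in HIBI libraries. Of these 0 of 3 were called. None of the endothelial, choroid plexus, erythrocyte, skeletal muscle, or neuronal miRNAs tested was called, and the median log2 fold changes of these lists were -0.45, 0.31, 0.20, -0.70, and -0.38. The part of other cell types in the difference was not tested.

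In the cerebellum, whose libraries had no part in choosing the locus but came from the same 8 pups, miR-214-3p did not separate HIBI from sham. It was at 47.7, 30.6, 32.5, and 36.1 CPM in sham pups 2, 3, 6, and 8 and at 18.0, 18.7, 33.0, and 38.0 CPM in HIBI pups 1, 4, 5, and 7. Pups 1 and 4 were below every sham pup and the other HIBI pups were within the sham range. The mean was 36.7 ± 7.69 CPM in sham and 26.9 ± 10.1 CPM after HIBI, and the log2 fold change was -0.41 ± 0.33, which did not pass the test (edgeR quasi-likelihood, adjusted p = 0.537, and exact two-sided permutation p = 0.257).

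The miR-199a arms had a log2 fold change of the opposite sign in the cerebellum and did not pass the test either. MiR-199a-5p was at 56.0, 49.4, 64.9, and 66.3 CPM in sham and at 57.2, 62.1, 103, and 84.4 CPM in HIBI pups, with pups 5 and 7 above every sham pup. The log2 fold change was 0.40 ± 0.27 (edgeR adjusted p = 0.483). MiR-199a-3p was at 142, 139, 138, and 176 CPM in sham and at 77.1, 136, 314, and 195 CPM in HIBI pups. Its HIBI libraries reached to both sides of the sham range, and the log2 fold change of 0.30 ± 0.35 (edgeR adjusted p = 0.658) became -0.10 without pup 5. MiR-214-5p was read 3, 0, 0, and 7 times in sham and 5, 4, 8, and 1 times in HIBI pups, a log2 fold change of 0.97 ± 0.97 (edgeR adjusted p = 0.598). None of the 4 was called, and none had an unadjusted p under 0.05 by edgeR or DESeq2, in a region where 34 of 435 miRNAs (7.82%) were called. Over all 435 the median log2 fold change was 0.11. With library size alone it was 0.27 and with upper quartile scaling -0.02, and the share of the called miRNAs that were higher was 47.1% with TMM, 80.4% with library size, and 15.2% with upper quartile scaling.

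In the cortex none of the 4 products separated HIBI from sham. MiR-214-3p was at 17.1, 26.5, 19.6, and 8.37 CPM in sham pups and at 16.6, 25.1, 14.1, and 15.8 CPM in HIBI pups. The HIBI libraries were all within the sham range. The means were 17.9 ± 7.49 and 17.9 ± 4.92 CPM, and the log2 fold change was 0.01 ± 0.36, with a 95% interval of -0.78 to 0.80.

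The miR-199a arms overlapped between the groups in the cortex as well. MiR-199a-5p averaged 37.1 ± 7.03 CPM in sham and 35.5 ± 11.4 CPM in HIBI pups, a log2 fold change of -0.06 ± 0.30, with 1 HIBI library below every sham library. MiR-199a-3p averaged 80.5 ± 13.9 and 70.1 ± 16.3 CPM, a log2 fold change of -0.20 ± 0.22, with 2 HIBI libraries below every sham library. MiR-214-5p was read 6, 8, 2, and 1 times in sham and 1, 1, 4, and 14 times in HIBI pups, and most of its HIBI reads came from pup 7. None of the 4 was called by edgeR or DESeq2, and none had an unadjusted p under 0.05. The lowest edgeR adjusted p of the 4 was 0.960, and 14 of 411 miRNAs (3.41%) were called.

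**Figure D2:**
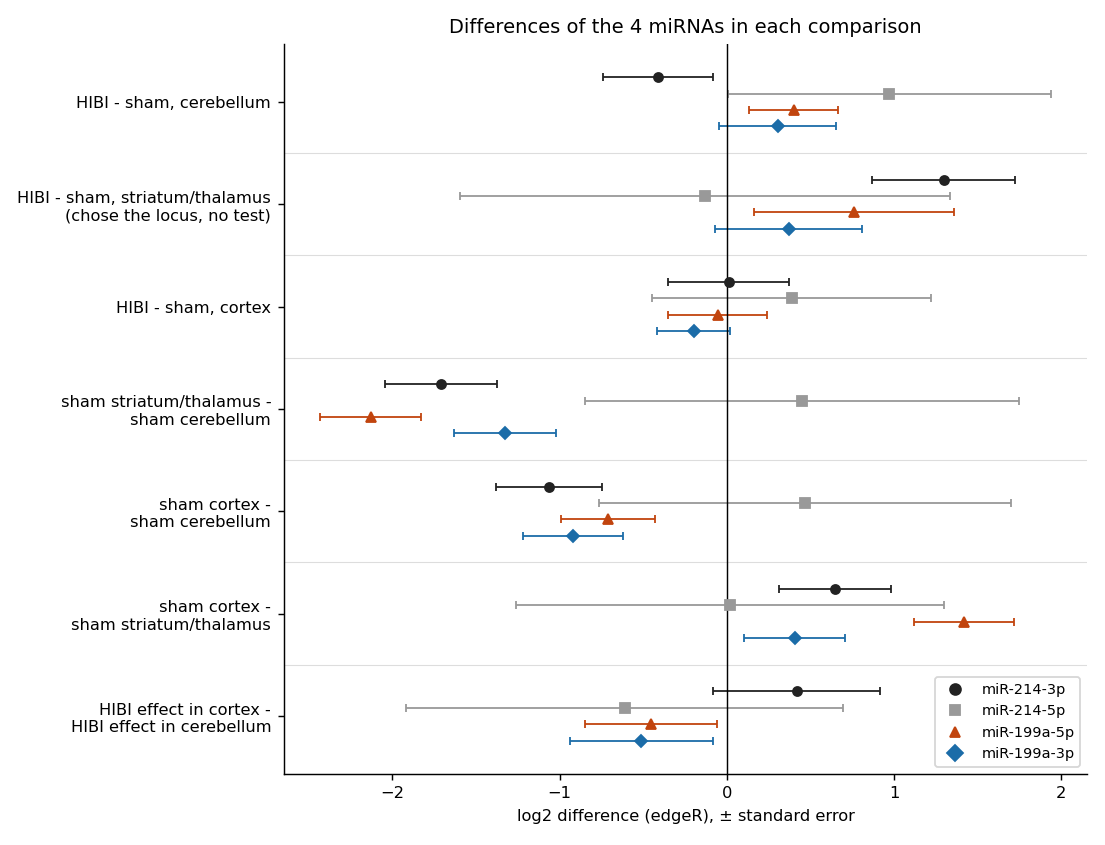
Log2 difference of each of the 4 miRNAs in the 7 comparisons, as the edgeR estimate with its standard error. In the striatum/thalamus miR-214-3p stands at 1.30 after HIBI and in the cerebellum at -0.41, and the sham cerebellum exceeds both other sham regions for miR-214-3p, miR-199a-5p, and miR-199a-3p.

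The study's question of ischemia against hypoxia alone was asked of the cortex and cerebellum, whose libraries had no part in choosing the locus. These are different tissues, so an effect of ischemia and a difference between regions cannot be told apart. The main fit did not use the pairing by pup. The injury effect in the cortex minus that in the cerebellum was 0.42 ± 0.50 on the log2 scale for miR-214-3p, -0.45 ± 0.40 for miR-199a-5p, -0.51 ± 0.43 for miR-199a-3p, and -0.61 ± 1.31 for miR-214-5p. None of the 4 passed the edgeR interaction test, where 0 of 434 miRNAs (0%) had an adjusted p under 0.05 and the lowest was 0.296. At an unadjusted p under 0.05 there were 48 by edgeR, 57 by DESeq2, and 71 by edgeR with the pup as a block. None of them was 1 of the 4. DESeq2 and the fit with the block also called 0 at an adjusted p under 0.05.

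The regions of the sham pups differed in the level of miR-214-3p and of both miR-199a arms. MiR-214-3p, miR-199a-5p, and miR-199a-3p were each highest in the cerebellum in 4 of 4 sham pups, with no overlap between the cerebellum and either other region. The share of all miRNAs without overlap was not computed. Of 424 miRNAs 65.1% were called between striatum/thalamus and cerebellum, and 64.6% between cortex and cerebellum. The separation is therefore not read as particular to these products. The summed level of the 4 products was 219 to 281 CPM in the sham cerebellum, 105 to 151 CPM in the sham cortex, and 44.6 to 117 CPM in the sham striatum/thalamus. The miR-199a reads in this sum cannot be assigned to Dnm3os alone.

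Between cortex and cerebellum 3 of the 4 products were lower in the cortex. These libraries had no part in choosing the locus, but they came from the sham pups whose striatum/thalamus did. The edgeR fit also took its spread from all 12 sham libraries, the striatum/thalamus included. Its SE and p are therefore not independent of the choice of the locus. MiR-214-3p was 2.09-fold lower in the cortex (17.9 ± 7.49 against 36.7 ± 7.69 CPM, log2 difference -1.06 ± 0.32, edgeR adjusted p = 0.00955). MiR-199a-3p differed by -0.92 ± 0.30 (80.5 ± 13.9 against 149 ± 18.1 CPM, edgeR adjusted p = 0.0151) and miR-199a-5p by -0.71 ± 0.28 (37.1 ± 7.03 against 59.1 ± 7.95 CPM, edgeR adjusted p = 0.0376). MiR-214-5p, at 1.57 ± 1.22 CPM in the cortex and 1.01 ± 1.31 CPM in the cerebellum, did not pass (0.47 ± 1.23). For each of the first 3 the exact permutation p was 0.0286, the smallest that 4 against 4 libraries allow when the pairing by pup is not used.

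These calls depended on the fit. With a minimum of 1 CPM in place of 10, or none, 0 of the 4 were called, and with 1 sham pup left out the count was 1 without pup 2, 2 without pup 3, 0 without pup 6, and 0 without pup 8, while the difference of miR-214-3p stayed between -1.35 and -0.77. MiR-199a-5p was no longer called with the pup as a block (log2 difference -0.69), with the size factors of DESeq2 in edgeR (-0.65), or with library size alone (-0.64), and 2 of the 4 were called in each. Most miRNAs differed between these regions, since 274 of 424 (64.6%) were called, so a call says little about this locus. The median over all 424 was -0.13, against -0.82 for the 4.

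The sham striatum/thalamus libraries were part of the contrast that chose the locus, so the value for miR-214-3p is a description. Its log2 difference from the cerebellum was -1.71 ± 0.33 (10.7 against 36.7 CPM). MiR-199a-5p and miR-199a-3p were measured in the same libraries, and over all libraries miR-199a-5p varied with miR-214-3p (r = 0.55 of deviations). Their tests are therefore not independent of the choice of the locus. The former was 4.38-fold lower in the striatum/thalamus (13.0 ± 5.07 against 59.1 ± 7.95 CPM, log2 difference -2.13 ± 0.30, edgeR adjusted p = 2.24e-05), and the latter was 2.51-fold lower (57.3 ± 28.5 against 149 ± 18.1 CPM, -1.33 ± 0.30, edgeR adjusted p = 0.00136). Both passed the test with every scaling, minimum, and left-out pup that was tried, in a comparison where 276 of 424 miRNAs (65.1%) were called.

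Between cortex and striatum/thalamus 1 of the miR-199a arms passed the test, which likewise is not independent of the choice of the locus. MiR-199a-5p was 2.67-fold higher in the sham cortex than in the sham striatum/thalamus (log2 difference 1.42 ± 0.30, edgeR adjusted p = 0.00196), with no overlap. MiR-199a-3p differed by 0.40 ± 0.30 and did not pass (edgeR adjusted p = 0.321). The log2 ratio of the 5p to the 3p arm differed by 0.94 ± 0.61 between these regions (exact permutation p = 0.171), so the arms were not shown to differ from each other. MiR-214-3p differed by 0.64 ± 0.33, given without a test. Of 424 miRNAs 163 (38.4%) were called in this comparison, of which 42.9% were higher in the cortex with TMM and 56.1% of 157 with upper quartile scaling.

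In the HIBI pups the cerebellum was again the highest region for the miR-199a arms, but not in every pup for miR-214-3p. MiR-199a-5p in the cerebellum (57.2 to 103 CPM) was above the striatum/thalamus (3.55 to 36.7 CPM) and cortex (19.5 to 46.3 CPM) of the same pup in 4 of 4 pups, without overlap. Of 447 miRNAs 49.4% were called between striatum/thalamus and cerebellum of the HIBI pups, and 30.4% between cortex and cerebellum. MiR-199a-3p in the cerebellum was above both other regions in 4 of 4 pups, although the ranges overlapped. MiR-214-3p in the cerebellum was above the striatum/thalamus in 2 of 4 HIBI pups and above the cortex in 3 of 4. The log2 difference of the striatum/thalamus from the cerebellum in the 12 HIBI libraries was -0.044 for miR-214-3p, against -1.79 for miR-199a-5p and -1.29 for miR-199a-3p. The first value includes the HIBI striatum/thalamus libraries that chose the locus and was not tested for that reason.

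Ordered by group mean, miR-214-3p ran from the sham cerebellum (36.7 CPM) through the HIBI striatum/thalamus (28.2), HIBI cerebellum (26.9), HIBI cortex (17.9), and sham cortex (17.9) to the sham striatum/thalamus (10.7). The ranges of all neighbours in that order overlapped. For miR-199a-5p the order was HIBI cerebellum (76.6), sham cerebellum (59.1), sham cortex (37.1), HIBI cortex (35.5), HIBI striatum/thalamus (23.0), and sham striatum/thalamus (13.0). Only the step from the sham cerebellum to the sham cortex was free of overlap. MiR-199a-3p had the same 2 groups at the top, with the same step free of overlap.

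Markers of other cells differed between the sham regions as well. The summed level of 4 skeletal muscle miRNAs was 449 to 605 CPM in the cerebellum, 52.8 to 141 CPM in the striatum/thalamus, and 28.4 to 63.6 CPM in the cortex, where 1 of the 4 was at 0 in every library. Both of its members tested were lower in the cortex than in the cerebellum, as were 2 of 2 choroid plexus, 3 of 4 ciliated epithelium, and 2 of 3 erythrocyte miRNAs. Of the mural cell and fibroblast miRNAs 0 of 3 passed in that comparison (median log2 difference -0.21) and 1 of 3, which was lower, in the striatum/thalamus, and of the endothelial ones 0 of 1 passed in either. Among the neuronal miRNAs 1 of 4 was called in the cortex, higher, and 2 of 4 in the striatum/thalamus, lower. Their summed level was 128139 to 209238 CPM in the cerebellum, 91928 to 163215 CPM in the striatum/thalamus, and 203453 to 235013 CPM in the cortex. The part of these cells in the regional differences was not tested.

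The ratio of 2 products in the same library does not depend on scaling. For each read of miR-214-3p the sham cerebellum had 1.17, 1.61, 2.00, and 1.84 reads of miR-199a-5p in pups 2, 3, 6, and 8, and the HIBI cerebellum had 3.18, 3.32, 3.12, and 2.22 in pups 1, 4, 5, and 7. All 4 HIBI libraries were above all 4 sham libraries. The log2 ratio of miR-214-3p to miR-199a-5p was -0.70 ± 0.34 in sham and -1.55 ± 0.27 after HIBI (SD, n = 4), a difference of -0.85 ± 0.22. The exact two-sided permutation p was 0.0286, the smallest this design allows. It was 0.314 after Benjamini-Hochberg adjustment over the 11 ratios tested. That is the value that 1 ratio alone at the smallest p gets in a family of this size. Passing would have required several of the other ratios to reach that p as well, and their lowest exact permutation p was 0.114. This ratio was added after the data were seen. With any 1 pup left out the difference lay between -0.98 and -0.69. Among the markers of other cell types in these libraries, 2 of 3 erythrocyte miRNAs and 1 of 2 choroid plexus miRNAs were called lower after HIBI, and 1 of 3 skeletal muscle miRNAs higher. The summed level of 5 erythrocyte miRNAs was 1233 to 2364 CPM in sham and 930 to 1353 CPM in HIBI libraries. None of the endothelial, mural, ciliated, or neuronal miRNAs tested was called. The part of these cells in the ratio was not tested.

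In the other regions the same ratio did not separate the groups. In the cortex the log2 ratio of miR-214-3p to miR-199a-5p differed between HIBI and sham by 0.20 ± 0.33 (exact permutation p = 0.629). In the striatum/thalamus there were 1.29, 0.640, 1.74, and 1.17 reads of miR-199a-5p per read of miR-214-3p in sham pups 2, 3, 6, and 8, and 0.278, 0.435, 1.86, and 0.916 in HIBI pups 1, 4, 5, and 7. The groups overlapped, and HIBI pup 5 was the highest of the 8.

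The ratio of miR-214-3p to miR-199a-3p overlapped between HIBI and sham in all 3 regions. HIBI minus sham was -0.61 ± 0.30 on the log2 scale in the cerebellum (exact permutation p = 0.114), 0.29 ± 0.42 in the cortex (exact permutation p = 0.514), and 0.70 ± 0.63 in the striatum/thalamus, not tested. The ratio of the 2 miR-199a arms differed by 0.24 ± 0.26 in the cerebellum (exact permutation p = 0.486) and 0.09 ± 0.40 in the cortex (exact permutation p = 0.771).

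**Figure D3:**
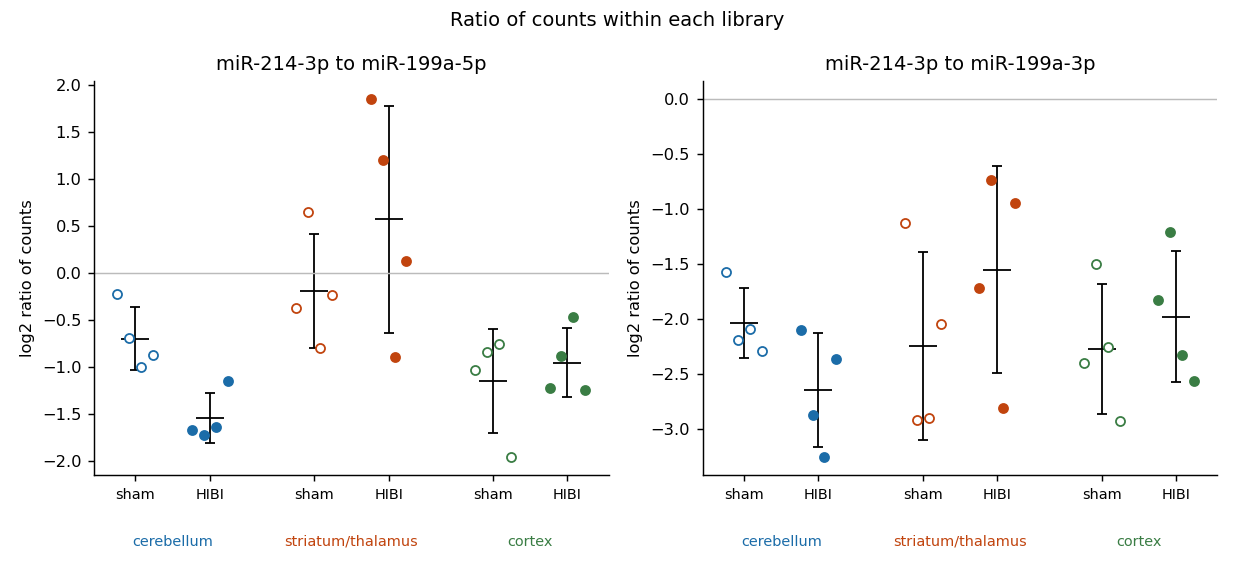
Log2 ratio of the counts of miR-214-3p to miR-199a-5p (left) and to miR-199a-3p (right) in each library, with open circles for sham and filled circles for HIBI pups; the bars are the mean and SD of 4 libraries. On the left the 4 HIBI libraries of the cerebellum lie below the 4 sham libraries, and on the right the groups overlap in every region.

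The relation of the other products to miR-214-3p was taken over the 8 pups of a region, HIBI and sham together. In the cerebellum Pearson's r with miR-214-3p was 0.54 for miR-199a-3p (exact permutation p = 0.172; rho = 0.76, p = 0.0368), 0.21 for miR-199a-5p (p = 0.645; rho = 0.31, p = 0.462), and -0.31 for miR-214-5p (p = 0.445; rho = -0.23, p = 0.586). In the cortex it was 0.56 for miR-199a-5p (exact permutation p = 0.157; rho = 0.76, p = 0.0368), 0.09 for miR-199a-3p (p = 0.839; rho = 0.07, p = 0.882), and 0.17 for miR-214-5p (p = 0.676; rho = 0.14, p = 0.752). None of the 6 relations passed after Benjamini-Hochberg adjustment, where the lowest value was 0.517 for r and 0.110 for rho. Without the 2 pups farthest from the median of miR-214-3p, pups 1 and 4, r of miR-199a-3p in the cerebellum was -0.17, so that relation rests on those pups. In the cortex r of miR-199a-5p was 0.71 without pups 3 and 8. With the means of HIBI and sham taken out, r in the cerebellum was 0.72 for miR-199a-5p and 0.72 for miR-199a-3p, and in the cortex 0.58 and 0.13, given as a description. In the striatum/thalamus, where no p is given, r of the levels was 0.56 for miR-199a-5p, 0.38 for miR-199a-3p, and -0.13 for miR-214-5p.

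**Figure D4:**
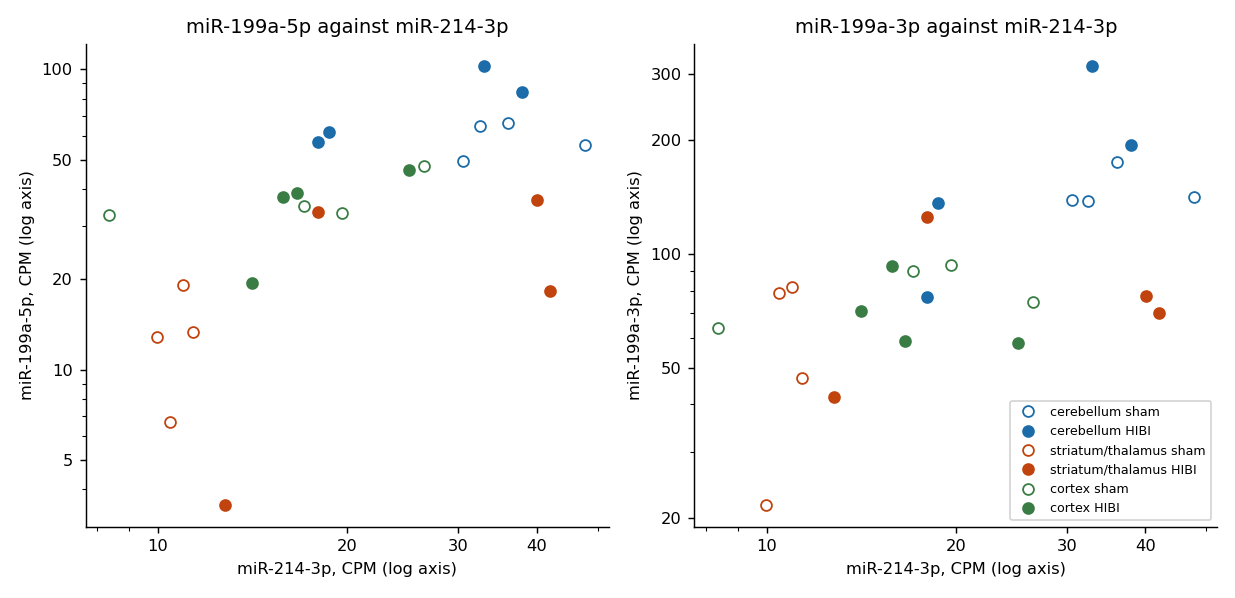
Level of miR-199a-5p (left) and miR-199a-3p (right) against miR-214-3p in the 24 libraries, in CPM on log axes, coloured by region with open circles for sham and filled circles for HIBI pups. On the left the 8 cerebellum libraries lie above the other 16, and HIBI pups 4 and 7 of the striatum/thalamus lie at 42.0 and 40.1 CPM of miR-214-3p with 18.3 and 36.7 CPM of miR-199a-5p.

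Likeness to miR-214-3p was also ranked over the 24 libraries, as Pearson's r of the deviations of log2(CPM + 1) from the mean of the region and injury group, among 378 miRNAs. The points share libraries, pups, and depth, and they include the striatum/thalamus libraries that chose the locus. The values are therefore a description. MiR-199a-5p was the third most alike (r = 0.55) and miR-199a-3p the 36th (r = 0.31), beside miR-199b-3p, which has the same sequence, in place 34 (r = 0.32). MiR-214-5p, placed by its value although it averaged below 10 CPM, was in place 287 (r = -0.17). The 5 miRNAs most alike outside the locus were miR-1306-5p (r = 0.72), miR-1982-3p (r = 0.68), miR-574-3p (r = 0.53), miR-92a-3p (r = 0.52), and miR-378a-3p (r = 0.51), and the median r was close to 0.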

How the data were processed

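The authors used Bowtie2 to align the reads to the mature mouse sequences of miRBase. The values they deposited are raw counts per mature miRNA, 1 table for each region. The miRBase release, the tool versions, and the handling of reads with several matches are not given in the sources used here. The tables also hold the authors' own edgeR comparison, which was not used. Of 1551 entries, 20 named for the castor bean (84 counts) were left out.

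The tools were R 4.3.3, edgeR 4.0.16 (TMM, quasi-likelihood test, Benjamini-Hochberg adjustment), and DESeq2 1.42.0 as an alternative. MiRNAs averaging above 10 CPM over the libraries of a fit were tested, with the 4 members always kept. HIBI and sham were compared within each region (called: fold change above 1.5 and unadjusted p under 0.05), and the regions in 1 fit of the 12 sham libraries (called: adjusted p under 0.05). Exact permutation tests of levels, as log2(CPM + 1), used R. Those of ratios, as log2 of the ratio of counts, and of relations over pups, from log2(CPM + 1), used Python 3.11.15. They took all 70 arrangements of 4 against 4 libraries, or all 40320 pairings of 8 pups. The scripts were tested on simulated data. The 4 members and the marker lists were chosen with earlier results of these data known. The named miRNAs were the members, the 5 most like miR-214-3p outside the locus, and relatives or markers where a result turned on them.

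Subject numbers in the labels pair the regions of a pup. Same-pup deviations had a median correlation of 0.18 to 0.32 across 379 miRNAs, so the pup was used as a block in an alternative. All replicate pairs differed by more than sampling noise (lowest chi-square per degree of freedom 26.5). Single values rest on few reads, from 1254185 to 3406624 per library in total, and p-values cover the spread between 4 pups.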

Additional observations from a re-analysis of the deposited data

Results flagged for a closer look

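In 3 of the 24 groups of 4 libraries that were examined (4 miRNAs, 3 regions, sham and HIBI), 1 library lay far from the other 3 by the Dixon criterion on the gap over the range. Chance meets it in about 1 of 20 groups of normally distributed values, a rate that does not hold for few reads. MiR-214-5p was at 5.73 CPM in the striatum/thalamus of sham pup 6, where the other 3 sham pups had no reads, so any read in that library meets the criterion. MiR-199a-5p was at 47.6 CPM in the cortex of sham pup 3, with the others at 32.7 to 35.1 CPM. MiR-199a-3p was at 176 CPM in the cerebellum of sham pup 8, with the others at 138 to 142 CPM.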

How the results depend on the processing

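Of 666 values recomputed with another scaling, CPM minimum, test, set of libraries, or pup left out, 347 came with a p. Of these, 307 kept their direction and their side of the threshold, 22 lost a call, 0 gained one, and 18 changed sign. Of the 319 without a p, 18 changed sign, 11 kept their sign but moved past a limit set for their kind of value, and 290 did neither. The 11 were counts of the 4 called and values of r in the striatum/thalamus, and none was judged against a spread. The sign changes included the log2 ratio of miR-214-3p to miR-199a-3p in sham cortex against striatum/thalamus (-0.023, but 0.39 without pup 2 and 0.26 without pup 8) and that of miR-214-3p to miR-199a-5p with HIBI in the cortex (0.20, but -0.075 without pup 8). Unless a cause is given, it was not tested. For HIBI against sham in the cortex, miR-214-3p became -0.031 with upper quartile scaling and -0.0077 with a minimum of 1 CPM. In sham cortex against cerebellum, miR-214-3p was -0.83 with a minimum of 1 CPM or none, no longer called, where 0 of the 4 were called in place of 3 and 282 of 721 or 259 of 1380 miRNAs were called. In the 12 HIBI libraries miR-214-3p was -0.67 in cortex against cerebellum, where 1 of the 4 was called, -0.044 in striatum/thalamus against cerebellum, and -0.62 in cortex against striatum/thalamus, where 0 were called. There miR-199a-3p was -0.14 in the last comparison, and miR-214-5p was -0.67 in striatum/thalamus and -0.13 in cortex against cerebellum. Over all miRNAs, the calls with HIBI were 34 in the cerebellum (61 with a minimum of 1 CPM, 106 with none, 18 to 82 with a pup left out), 12 in the striatum/thalamus (19, 54, and 5 to 39, and 19 by DESeq2), and 14 in the cortex (41, 86, and 10 to 17). Sham cortex against cerebellum had 274 calls and 136 in the HIBI libraries, and the interaction 0 and 8 with no minimum. Summing miR-199a-3p and miR-199b-3p, chosen after seeing the data, changed no count of the 4 called.

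With the replicate block (the pup), the difference of miR-214-3p was -1.70 in sham striatum/thalamus and -1.11 in sham cortex against cerebellum. The block changed 1 call of the 4, that of miR-199a-5p in cortex against cerebellum, which was also lost with the size factors of DESeq2 and with library size alone.

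With 1 pup left out in turn, the log2 fold change with HIBI ran from -0.10 to 0.54 for miR-199a-3p in the cerebellum, from -0.89 to 4.48 for miR-214-5p in the striatum/thalamus. In the cortex it ran from -0.24 to 0.28 for miR-214-3p, -0.79 to 0.79 for miR-214-5p, and -0.25 to 0.16 for miR-199a-5p. The number of the 4 called, the chosen miR-214-3p included, ran from 1 to 2 in the striatum/thalamus (2 without pup 1, where 12 of 428 miRNAs, 2.8%, were called) and from 0 to 2 in sham cortex against cerebellum, where miR-214-3p ran from -1.35 to -0.77. MiR-214-5p ran from -4.69 to 2.02 in sham striatum/thalamus and -0.22 to 1.95 in sham cortex against cerebellum, from -0.79 to 5.23 in sham cortex against striatum/thalamus, and from -2.10 to 0.068 in the interaction. These runs hold its few reads in single libraries.

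Without the 2 pups farthest from the median, r with miR-214-3p in the cerebellum was 0.29 for miR-214-5p, -0.11 for miR-199a-5p, and -0.17 for miR-199a-3p, in the cortex -0.51 for miR-214-5p and -0.30 for miR-199a-3p, and in the striatum/thalamus 0.50 for miR-214-5p and 0.62 for miR-199a-3p. With deviations from the group mean the last 2 were -0.44 and 0.18. A ratio of miR-214-5p to miR-214-3p could not be formed where a count was 0. With a pup left out the ratios had no test, since 3 against 4 libraries cannot reach a p under 0.0571.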

Other observations

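The 2 HIBI pups with the highest summed level of the 4 products in the cerebellum, pups 5 (453 CPM) and 7 (317 CPM), were also the 2 highest in the striatum/thalamus (180 and 154 CPM), and pup 1 was the lowest HIBI pup in both (156 and 60.4 CPM). In the cortex the order was not the same, with pup 5 the lowest HIBI pup at 105 CPM and pup 7 the highest at 152 CPM. The 5p share of the miR-214 reads in single libraries ran from 0% to 34.3%, and the highest share was that of sham pup 6 in the striatum/thalamus, 12 of 35 reads.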
